A study of Mus musculus with 16 samples.

Results

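Ephx1, Gss, Gsto1, Dcxr, Msrb3 and Me1 encode enzymes that use or supply glutathione and NADPH or that clear reactive compounds, and they are described here across cultured mouse cells of the types M833 and WT. They were taken as every probe whose platform annotation gives one of these 6 symbols alone, which were 9 of 15247 probes and 6 of 7114 named genes. Me1 had 4 probes and each other gene 1. The symbols were picked with the M833 and WT log ratios of these arrays in view, so the values of the 6 genes are given as a description, with no p-value for their difference.

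The arrays were 2-colour arrays, each hybridised with total RNA of one cell type and, in the opposite dye, with a reference RNA common to all. M833 had 8 arrays, 4 with the sample in Cy5 (replicates 1 to 4) and 4 with it in Cy3 (replicates 5 to 8), and WT had 8 arrays divided in the same way. The labels state neither what M833 stands for nor what the reference RNA was made of, nor any treatment, passage or age. The series title names Met mutations in MEFs, which usually stands for mouse embryonic fibroblasts, so the comparison of M833 with WT is one of cells with a Met mutation and cells without it only as far as that title goes. No label says that arrays of one cell type came from separate cultures, so the errors and p-values below cover the spread from array to array, part or all of which could be technical. Each value is a log2 ratio, read as sample over reference, a direction that is likely from the titles but not stated. An M833 minus WT difference below 0 means less of that transcript relative to the reference in M833. If the ratio ran the other way, every such difference would change sign.

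Epoxide hydrolase and the cytochrome P450 enzymes work on foreign and endogenous compounds in the first phase of detoxification, and transferases then attach glutathione or another group. Glutathione is a tripeptide made by glutamate-cysteine ligase and glutathione synthetase, and its reduced form is kept up by NADPH from malic enzyme and the pentose phosphate pathway. Many of these genes are known targets of the transcription factor NRF2, which binds antioxidant response elements, while xenobiotic response elements are bound by the aryl hydrocarbon receptor.

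The promoters of Me1, Ephx1 and Gsto1 are shown, Me1 because it held the one antioxidant response element match among the 6 genes, and Ephx1 and Gsto1 because their ratios ran in opposite directions over the arrays. The sequences are from RefSeq, build GRCm38.p6, for which all 6 genes were matched by symbol, and each gives the 250 bases before the annotated start on the gene's own strand. The Me1 line goes on for 3 bases past the start, to the end of the match, which is in capitals.
Me1, chr9:86695912-86696164, minus strand: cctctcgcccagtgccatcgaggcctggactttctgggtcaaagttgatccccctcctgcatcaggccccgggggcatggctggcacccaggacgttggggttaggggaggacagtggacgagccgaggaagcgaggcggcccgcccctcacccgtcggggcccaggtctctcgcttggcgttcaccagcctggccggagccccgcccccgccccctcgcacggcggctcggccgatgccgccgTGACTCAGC
Ephx1, chr1:181017570-181017819, minus strand: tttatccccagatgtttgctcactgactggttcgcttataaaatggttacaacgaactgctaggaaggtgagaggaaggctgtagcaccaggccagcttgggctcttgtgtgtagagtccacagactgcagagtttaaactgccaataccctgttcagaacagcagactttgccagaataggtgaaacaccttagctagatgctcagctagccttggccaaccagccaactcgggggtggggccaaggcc
Gsto1, chr19:47854723-47854972, plus strand: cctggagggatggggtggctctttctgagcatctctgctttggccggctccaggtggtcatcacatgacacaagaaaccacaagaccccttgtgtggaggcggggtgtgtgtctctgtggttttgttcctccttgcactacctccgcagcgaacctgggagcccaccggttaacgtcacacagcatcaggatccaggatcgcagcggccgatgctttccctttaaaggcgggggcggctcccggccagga

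The motif searched for the antioxidant response element core was TGACNNNGC on both strands, in the window of 250 bases before to 50 bases after the start. It occurred in 4071 of 32851 mouse promoters (12.4%), and among the 6 genes in the first of 2 annotated starts of Me1, where it began 6 bases before the start. The xenobiotic response element core GCGTG occurred in 10639 promoters (32.4%), and once each in the windows of Gss, Dcxr and Msrb3. The windows of Ephx1 and Gsto1 held neither string of letters. These are matches of letters and not measured binding sites.

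The arrays were not all alike. Between arrays r lay from 0.599 to 0.974 over all features. Its lowest value was 0.831 once WT replicate 2, which held 40 values above 8 on the log2 scale, was left out. WT replicates 1, 2, 5 and 6, here called set A, deviated together from WT replicates 3, 4, 7 and 8, here called set B. This division was found from the ratios of all features, as the best of 18 splits, with a correlation of 0.55 between the Cy5 and the Cy3 arrays against 0.23 for the next split. The same division of M833 by replicate number was weaker, at 0.25 against 0.11. As no label names the sets, they are used below to describe values and, in an alternative fit, as a random block, and were not tested against each other. The median size of the log ratios also differed between arrays, at 0.191 to 0.276 in M833 and 0.219 to 0.336 in WT, and values after scaling every array to one spread are given for the 6 genes and, for other genes, where the scaling ended a call or moved a difference by over 1.5 times.

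Of the 6 genes 5 were lower in M833 and 1, Gsto1, was higher. The limma threshold, an adjusted p under 0.05, was passed by 5 of the 6, against 25.9% of 12761 features, a count that carries no weight because the genes were chosen on this contrast. In Ephx1, Gss, Dcxr and Msrb3 all 8 M833 arrays lay below all 8 WT arrays, which held for 2.77% of all features. With the ratios scaled between arrays this held for Gss alone of the 6, beside 2.61% of all features, and the arrays of Ephx1, Dcxr and Msrb3 overlapped. Gsto1 and Me1 overlapped between the cell types. The median of the 6 differences was -0.47, beside -0.03 over all features and -0.20 over the 226 features with a mean log2 ratio above 1.

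**Figure D1:**
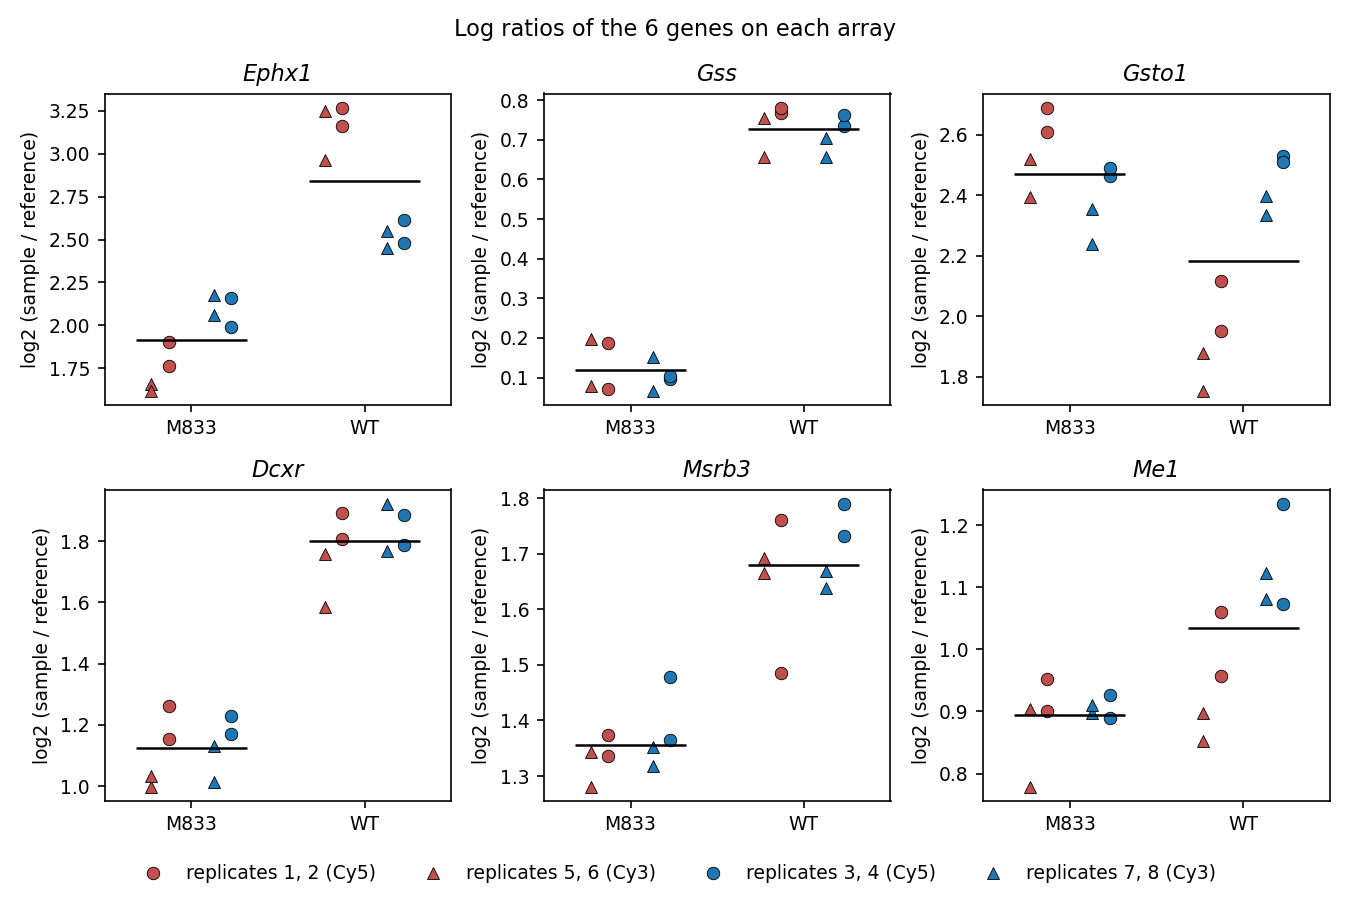
Log2 ratio of sample over reference (vertical axis) of each of the 6 genes on every array, with M833 left and WT right, circles for arrays with the sample in Cy5, triangles for Cy3, red for set A (replicates 1, 2, 5 and 6), blue for set B (replicates 3, 4, 7 and 8), and a line at the mean of the 8 arrays. In Ephx1, Gss, Dcxr and Msrb3 no M833 array reaches the lowest WT array, and in Ephx1 and Gsto1 the WT arrays form a red and a blue group.

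Ephx1 encodes microsomal epoxide hydrolase, which adds water to epoxides, and lies at chr1:180989556-181017569 (GRCm38.p6). Its log2 ratio was 1.62 at the lowest, 1.95 at the median and 2.18 at the highest M833 array, and 2.45, 2.79 and 3.27 on the WT arrays. The highest M833 array therefore lay below the lowest WT array. The means were 1.92 ± 0.22 in M833 and 2.84 ± 0.36 in WT (SD, n = 8 each), a difference of -0.93 ± 0.14 (SE), or 1.90-fold lower in M833. Relative to the reference the transcript was 3.77-fold higher in M833 and 7.17-fold higher in WT. By this ratio it ranked 18th among the 7114 named genes in M833 and 2nd in WT, an order of ratios and not of transcript levels. If the ratio ran the other way these ranks would be 7097 and 7113.

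The WT arrays of Ephx1 stood at 2 levels. Set A ran from 2.96 to 3.27 and set B from 2.45 to 2.61. In M833, replicates 1, 2, 5 and 6 lay between 1.62 and 1.90, below the other 4 arrays at 1.99 to 2.18, and no label ties these to the WT arrays of the same numbers. A difference between sets as large as that of Ephx1 was found in 1.17% of features in M833 and 3.82% in WT. The size of the M833 minus WT difference depended on the WT arrays used, and was -0.61 without WT set A and -1.24 without WT set B. With the ratios scaled between arrays it was -0.49, and the arrays overlapped, at 1.75 to 2.53 in M833 and 2.10 to 3.32 in WT. Fewer cells of a type and less RNA per cell cannot be told apart in bulk RNA like this, for Ephx1 or any gene below.

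Gss encodes glutathione synthetase, the enzyme of the last step of glutathione synthesis, and lies at chr2:155563181-155592810. Its ratio was 0.07 at the lowest, 0.10 at the median and 0.20 at the highest M833 array, and 0.66, 0.74 and 0.78 on the WT arrays. The cell types were thus apart by more than the whole range within either. The means were 0.12 ± 0.05 in M833 and 0.73 ± 0.05 in WT (SD, n = 8 each), a difference of -0.61 ± 0.03 (SE), or 1.52-fold lower in M833. Gss varied little over arrays of one cell type, with a residual SD of 0.0504 where 96.3% of features had a larger one. Its mean differed between the sets of arrays by 0.03 in M833 and 0.02 in WT, and its difference stayed at -0.59 and -0.62 without the one and the other WT set. M833 was close to the reference for this gene, at 1.09-fold, and WT was at 1.66-fold.

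Gsto1 encodes an omega class glutathione transferase, which also reduces dehydroascorbate, and lies at chr19:47854973-47864790. Its ratio was 2.24 at the lowest, 2.48 at the median and 2.69 at the highest M833 array, and 1.75, 2.22 and 2.53 on the WT arrays. The ranges overlapped. The means were 2.47 ± 0.14 in M833 and 2.18 ± 0.30 in WT (SD, n = 8 each), a difference of 0.29 ± 0.10 (SE), or 1.22-fold higher in M833. By its ratio to the reference Gsto1 ranked 5th of the named genes in M833 and 12th in WT, and it would rank 7110 and 7103 with the ratio turned.

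The WT arrays of Gsto1 fell into the same sets as those of Ephx1, but the other way round. WT set A ran from 1.75 to 2.12, below every M833 array. WT set B ran from 2.33 to 2.53 and lay within the range of M833. The difference was therefore 0.03 ± 0.05 without WT set A, and 0.54 ± 0.06 without WT set B (SE). With the ratios scaled between arrays it was 0.73 ± 0.15. After cell type means and dye effect were taken out, Ephx1 and Gsto1 had a correlation of -0.91 over the 16 arrays, of -0.70 over the 8 M833 arrays and of -0.98 over the 8 WT arrays. The arrays share a reference, and the sets contribute to the correlation, so it is given as a description.

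**Figure D2:**
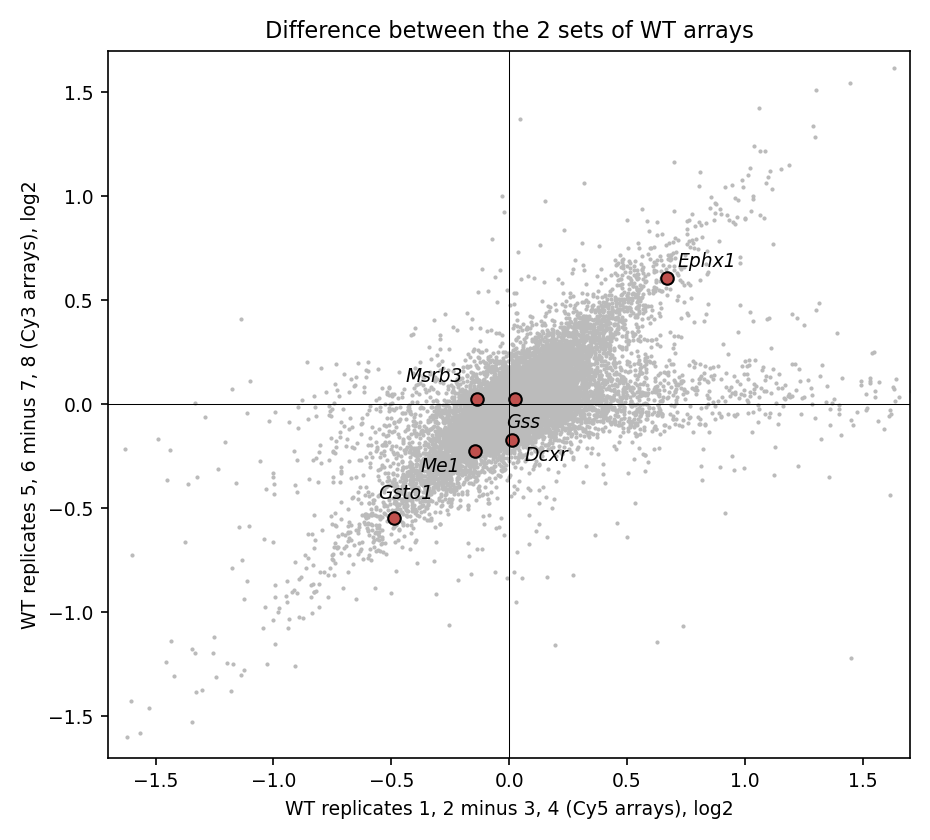
Difference between WT replicates 1 and 2 and WT replicates 3 and 4, with the sample in Cy5 (horizontal axis, log2), against that between WT replicates 5 and 6 and WT replicates 7 and 8, with the sample in Cy3 (vertical axis, log2), for all features in grey and the 6 genes in red; 150 features lie outside the axes. Ephx1 lies to the upper right and Gsto1 to the lower left, Me1 is lower left of the centre, and Gss, Dcxr and Msrb3 are closer to 0.

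Dcxr encodes dicarbonyl and L-xylulose reductase, which reduces reactive dicarbonyls with NADPH, and lies at chr11:120724546-120727284. Its ratio was 0.999 at the lowest, 1.14 at the median and 1.26 at the highest M833 array, and 1.59, 1.80 and 1.92 on the WT arrays. No array of M833 reached the lowest of WT. The means were 1.12 ± 0.10 in M833 and 1.80 ± 0.11 in WT (SD, n = 8 each), a difference of -0.68 ± 0.04 (SE), or 1.60-fold lower in M833. It was -0.72 without WT set A and -0.64 without WT set B. With the ratios scaled between arrays the difference of Dcxr was -0.41, and the arrays overlapped, at 1.03 to 1.45 in M833 and 1.35 to 1.85 in WT.

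Msrb3 encodes a methionine sulfoxide reductase that repairs oxidised methionine in proteins, and lies at chr10:120781100-120899011. Its ratio was 1.28 at the lowest, 1.35 at the median and 1.48 at the highest M833 array, and 1.49, 1.68 and 1.79 on the WT arrays. The cell types were barely apart, with M833 replicate 3 just below WT replicate 1. The difference of the means was -0.32 ± 0.04 (SE), or 1.25-fold lower in M833, and it was -0.05 ± 0.08 (SE) with the ratios scaled between arrays, where the arrays overlapped. Msrb3 took rank 55 by its ratio to the reference in both cell types, which would be rank 7060 with the ratio turned.

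Me1 encodes cytosolic malic enzyme, which makes NADPH while turning malate into pyruvate, and lies at chr9:86581363-86695914. The mean of its 4 probes was 0.78 at the lowest, 0.90 at the median and 0.95 at the highest M833 array, and 0.85, 1.07 and 1.23 on the WT arrays. The M833 arrays fell within the lower part of the WT range or below it. The difference was -0.14 ± 0.05 (SE), or 1.10-fold lower in M833, and a difference of this size or more was found in 35.2% of features. All 4 probes had a difference below 0, between -0.24 ± 0.05 and -0.04 ± 0.04 (SE), and in each of them the arrays of the cell types overlapped. Me1 was at -0.23 without WT set A and at -0.05 without WT set B, and scaling between arrays turned its sign, to 0.04 ± 0.06 (SE).

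**Figure D3:**
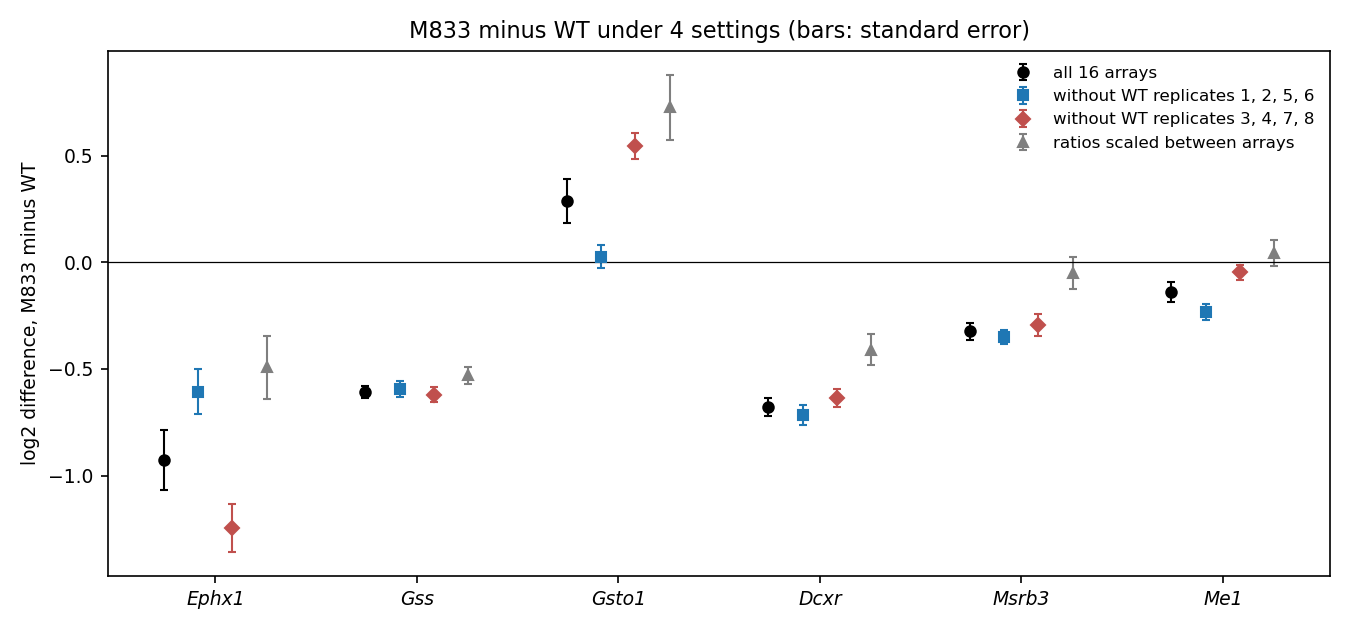
M833 minus WT (vertical axis, log2) of the 6 genes with its standard error, over all 16 arrays, without either set of WT arrays, and with the ratios scaled between arrays. Gss and Dcxr stay below -0.4 in all 4 settings, Ephx1 ranges from -1.24 to -0.49, Gsto1 from 0.03 to 0.73, and Msrb3 and Me1 come near 0 after scaling.

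Whether the difference between the cell types depended on the dye was tested, since the choice of genes did not use it. The interaction of dye orientation and cell type was called for none of the 6 genes (adjusted p = 0.9997 for each, limma). Its estimate lay between -0.08 (Gss) and 0.08 (Dcxr). The SE was 0.29 in Ephx1 and 0.21 in Gsto1, so a small dependence on the dye could not be seen there. Over all features 0 passed, and 361 had an unadjusted p under 0.05, where 638 were expected. All 6 genes had a mean above the reference, where 44.4% of all features were called above it and 38.4% below it. With the ratio turned, all 6 would lie below it and these shares would change places. The symbols were picked with the ratios of these arrays in view, so the count of 6 above the reference carries no weight.

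The named genes most like each of the 6, by Pearson's r over the 16 arrays after cell type means and dye effect were removed, were found for each. Differences between the sets of arrays were not removed and can contribute to r. The genes given are those with the highest r among the named genes. For Ephx1 they were the catalase gene Cat (r = 0.99) and the mitofusin gene Mfn1 (r = 0.97). For Gsto1 they were the glycolytic gene Pgam1 (r = 0.99) and Ndfip2 (r = 0.98), and for Me1 Tmtc4 (r = 0.94) and Anxa1 (r = 0.92). Cat, which breaks down hydrogen peroxide, averaged -1.43 on WT set A and -1.68 on WT set B. Likeness was lower for Gss, with Arhgef4 (r = 0.81) and Kank3 (r = 0.79), and for Dcxr, with Chmp1b (r = 0.84) and Cdc73 (r = 0.81). For Msrb3 the nearest were Arpc4 (r = 0.94) and Gtf3c1 (r = 0.90), which rested on WT replicate 1, since r was 0.72 and 0.46 without it.

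The pathway around the 6 genes was described through 7 lists, with the 6 genes left out, and these other genes were tested in limma over all features. Of their 100 measured genes 30 fell and 5 rose in M833 and 65 did not pass, beside 15.9% of all features lower and 10% higher. Their median difference was -0.09, against -0.03 over all features. With the sets of arrays as a random block 20 of the 100 passed, 18 lower and 2 higher, beside 7.08% of all features lower and 4.4% higher in that fit. The slides of 3 M833 arrays (replicates 6, 7 and 8) carry numbers of another series, and without these arrays Glrx, Gsta4, Aldh9a1, Txnip, Txn1, Taldo1, Hmox1 and Nfe2l2, named below, were not called. Without a dye term Ptgr1, Txn1, Taldo1, Hmox1 and Nfe2l1 were not called.

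**Figure D4:**
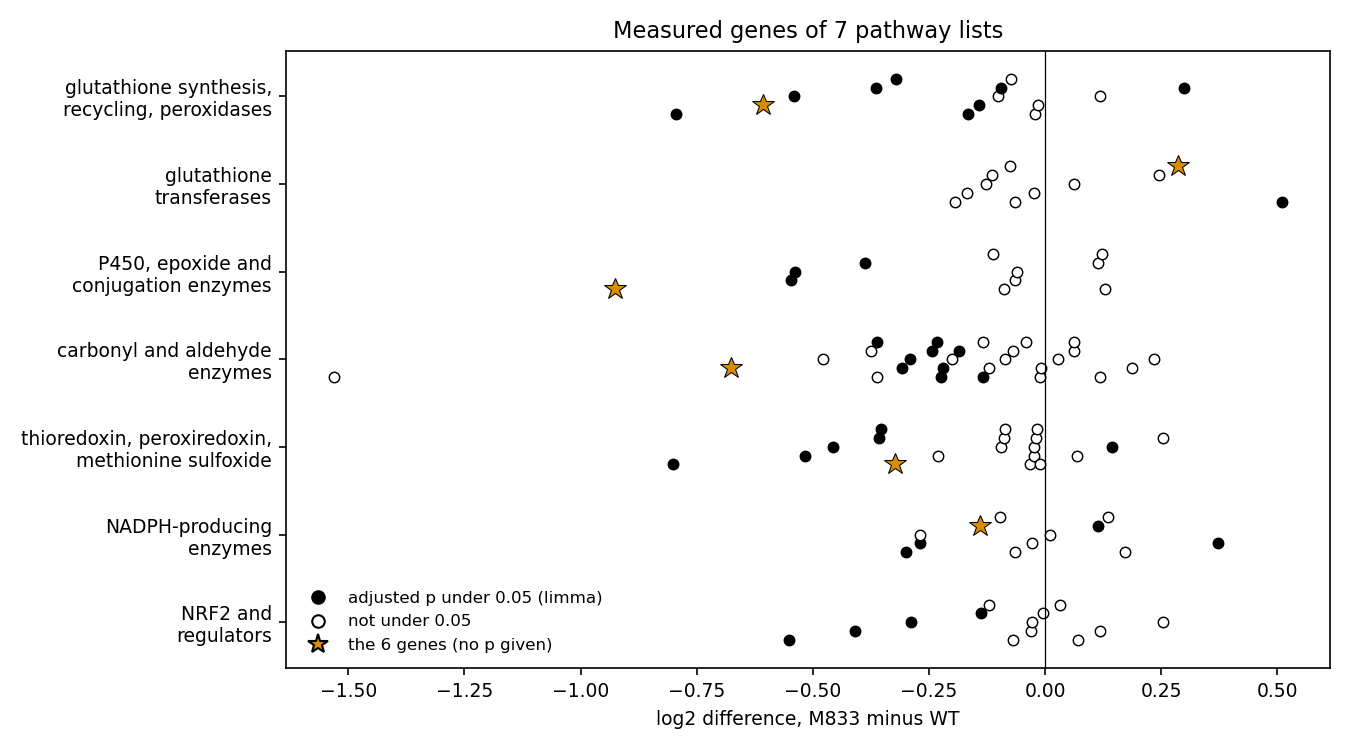
M833 minus WT (horizontal axis, log2) of every measured gene of the 7 pathway lists, one list per row, with filled points for genes with an adjusted p under 0.05 in limma, open points for the others and stars for the 6 genes, for which no p-value is given. Filled points lie mostly left of 0, with 30 below and 5 above it.

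Of 13 genes of glutathione synthesis, recycling and peroxidases 7 fell, 1 rose and 5 did not pass, with a median of -0.10. Glo1, which removes methylglyoxal with the help of glutathione, fell by 0.32 ± 0.03 (SE, adjusted p = 4.7e-06, limma). Slc3a2, a subunit of the cystine transporter, fell by 0.36 ± 0.07 (adjusted p = 0.0012) and the glutaredoxin gene Glrx by 0.54 ± 0.13 (adjusted p = 0.005). Without WT set A, Slc3a2 was at -0.21 and Glrx at -0.23. Esd, which hydrolyses S-formylglutathione, rose by 0.30 ± 0.03 (adjusted p = 5.4e-06). After scaling Glrx was at -0.84, Esd at 0.58 and Gpx3, described next, at -1.28. The extracellular peroxidase gene Gpx3 had a difference of -0.79 ± 0.20 (adjusted p = 0.0072), which was -0.49 without WT set B (adjusted p = 0.113) and was not called with sets as a random block (adjusted p = 0.0824).

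Glutathione transferases other than Gsto1 were below the reference in 8 of 10 genes. Of the 10, 1 rose, 0 fell and 9 did not pass. These counts varied with the arrays used. They were 3 higher and 0 lower without WT set A, and 0 higher and 4 lower without WT set B. After scaling 0 were higher and 2 lower. Over all features 10% were higher and 15.9% lower with all arrays. Both of these shares rose when the one or the other WT set was left out, and stayed close to these values after scaling. The counts of the list were not tested against the shares. The gene that rose, Gsta4, acts on lipid peroxidation products and had a difference of 0.51 ± 0.14 (SE, adjusted p = 0.0114, limma). It was 0.81 without WT set A, 0.22 without WT set B (adjusted p = 0.0823), and lost its call with sets as a random block (adjusted p = 0.0773) and after scaling (adjusted p = 0.0658).

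Of 10 genes of cytochrome P450, epoxide and conjugation enzymes other than Ephx1, 3 fell, 0 rose and 7 did not pass. Those that fell were the cytochrome b5 reductase gene Cyb5r3, by 0.55 ± 0.08 (SE, adjusted p = 0.000187, limma), the paraoxonase gene Pon3, by 0.54 ± 0.12 (adjusted p = 0.0028), and the cytochrome b5 gene Cyb5a, by 0.39 ± 0.06 (adjusted p = 0.000179). As in Ephx1, the differences were smaller without WT set A, at -0.34 for Cyb5r3, -0.27 for Pon3 and -0.26 for Cyb5a.

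Among 27 carbonyl and aldehyde reductases and dehydrogenases other than Dcxr, 9 fell, 0 rose and 18 did not pass, with a median of -0.13. The aldo-keto reductase gene Akr1b10 fell by 0.31 ± 0.05 (SE, adjusted p = 0.0005, limma), and this call was lost after scaling, at -0.13 (adjusted p = 0.183). Aldh7a1, an aldehyde dehydrogenase of lysine breakdown, fell by 0.29 ± 0.05 (adjusted p = 0.00064). Ptgr1, which reduces reactive alkenals, had a difference of -0.36 ± 0.09 (adjusted p = 0.0076). It was -0.16 without WT set A (adjusted p = 0.105), and not called with sets as a random block (adjusted p = 0.0521). Aldh9a1 had a difference of -0.24 ± 0.08 (adjusted p = 0.0324), and its call was lost without any one of WT replicates 1, 2, 5 and 6 or of M833 replicates 1, 3, 5, 6 and 7. It was at -0.06 without WT set A (adjusted p = 0.456), at -0.47 after scaling, and not called with sets as a random block (adjusted p = 0.114).

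Of 18 genes of thioredoxin, peroxiredoxin and methionine sulfoxide reductases other than Msrb3, 5 fell, 1 rose and 12 did not pass. The selenoprotein reductase gene Msrb1 fell by 0.46 ± 0.04 (SE, adjusted p = 5.2e-07, limma), in the same direction as Msrb3. The nucleoredoxin gene Nxn fell by 0.36 ± 0.04 (adjusted p = 4.2e-06), at -0.11 after scaling (adjusted p = 0.266). Selenop, which carries selenium in plasma, fell by 0.80 ± 0.13 (adjusted p = 0.000251), with a difference of -1.65 after scaling, and the thioredoxin inhibitor gene Txnip by 0.52 ± 0.13 (adjusted p = 0.0065), at -0.19 without WT set A. The thioredoxin gene Txn1 had a difference of 0.14 ± 0.04 (adjusted p = 0.0192), at 0.27 after scaling and not called without WT set B (adjusted p = 0.174) or with sets as a random block (adjusted p = 0.138).

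The list of NADPH-producing enzymes also held genes of related steps that do not make NADPH themselves, such as Rpe, Taldo1 and Nadk. Of its 11 genes other than Me1, 2 fell, 2 rose and 7 did not pass, with a median of -0.03. The folate enzyme gene Mthfd1 rose by 0.37 ± 0.03 (SE, adjusted p = 1.1e-06, limma), and Rpe, of the pentose phosphate pathway, fell by 0.27 ± 0.05 (adjusted p = 0.00054). The mitochondrial folate enzyme gene Mthfd2 had a difference of -0.30 ± 0.08 (adjusted p = 0.014), not called with sets as a random block (adjusted p = 0.0781), after scaling (adjusted p = 0.0827) or without WT set A (adjusted p = 0.0899). Taldo1, also of the pentose phosphate pathway, had a difference of 0.11 ± 0.04 (adjusted p = 0.0488), a call lost without any one of WT replicates 1, 2, 3, 4, 5, 7 and 8 or of M833 replicates 1, 2, 4, 7 and 8, with sets as a random block (adjusted p = 0.292) and after scaling, at 0.03 (adjusted p = 0.682).

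Of 13 genes of the list of NRF2 and its regulators and targets, 4 fell, 0 rose and 9 did not pass. The ferritin gene Fth1 fell by 0.41 ± 0.06 (SE, adjusted p = 0.000123, limma), with a difference of -0.63 after scaling, and the NRF2-related factor gene Nfe2l1 by 0.29 ± 0.03 (adjusted p = 1.1e-05). Nfe2l2, which encodes NRF2 itself, had a difference of -0.14 ± 0.03 (adjusted p = 0.0072), not called with sets as a random block (adjusted p = 0.105). The heme oxygenase gene Hmox1 had a difference of -0.55 ± 0.16 (adjusted p = 0.0222), which was -0.98 without WT set A and -0.12 without WT set B (adjusted p = 0.218), and was not called with sets as a random block (adjusted p = 0.0604).

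Genes that mark cell types and the cell cycle moved with the same contrast. Of 9 macrophage and leukocyte markers 8 fell, with a median of -0.81. The mean of that list ran from -1.60 to -1.23 over the M833 arrays and from -0.54 to -0.36 over the WT arrays, with Lyz2 (-1.67), C1qb (-1.45), C1qa (-1.17) and Lcp1 (-0.86) as its largest decreases. Of 9 fibroblast markers 6 fell, led by Col1a2 (-0.87), Col3a1 (-0.38), Fn1 (-0.38) and Col1a1 (-0.20), and the list mean ran from -0.66 to -0.25 in M833 and from -0.35 to 0.07 in WT. With sets as a random block 3 of the 9 fell. Fn1, the fibronectin gene, stood at a ratio of 1.65 in M833 and 2.03 in WT, and Col1a1 near the reference in both. A ratio to the reference gives no absolute level, so whether a marker was absent could not be judged. After scaling between arrays Col3a1 was at -0.61, and Fn1 was at -0.05 and not called (adjusted p = 0.751), and Col1a1 was not called with sets as a random block (adjusted p = 0.0636).

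Hepatocyte markers, relevant because the liver is rich in enzymes of this kind, had list means far below the reference, from -4.55 to -3.96 in M833 and from -4.62 to -4.001 in WT, and of 4 measured 1, Apob (0.21, adjusted p = 0.0083, limma), rose, a call lost with sets as a random block (adjusted p = 0.155) and after scaling (adjusted p = 0.108). Of 8 epithelial markers 0 passed, with list means from -2.54 to -1.73 in M833 and from -2.58 to -1.92 in WT. After scaling 3 of the hepatocyte and 3 of the epithelial markers were lower in M833 and 0 higher. Over all features 15.9% were lower before scaling and slightly more after it, and the marker counts were not tested against that share. Of 28 cell cycle genes 24 rose, led by Nek2 (0.84), Plk1 (0.83), Kif2c (0.76) and Mcm6 (0.75). The cell cycle list mean ran from -0.02 to 0.14 in M833, from -0.28 to -0.21 on WT set A and from -0.67 to -0.59 on WT set B. The part of these markers and of the cell cycle in the values of the 6 genes was not tested.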

How the data were processed

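Per the labels, total RNA was extracted with Trizol, labelled by reverse transcription and hybridised against a common reference with swapped dyes. The deposited values are log2 ratios that the authors had normalised. The submitters' processing notes name limma, without a version. That the scale is log2 was judged from the range of the values. How background was corrected or probes were filtered is not stated, and channel intensities were not used here, so dim or saturated probes could not be marked.

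Probes were named by platform annotation, with 9600 of 15247 probes having one symbol, 214 several and 5433 none. Of the first, 9492 were matched to RefSeq by Entrez gene number, and 0 symbols changed. The probes of a gene were averaged, giving 12761 features with 0 missing values.

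Tests used lmFit and eBayes of limma 3.58.1 (R 4.3.3) over all 16 arrays, in a model of cell type plus dye orientation, and Benjamini-Hochberg adjusted p under 0.05 was called. The ratios entered as deposited, with no scaling, centring or turned sign. The fit was run on simulated data with independent noise on each array. These did not hold the sets of arrays, so the run does not cover their effect on the calls. Replicate numbers follow accession order and name arrays only.

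The 6 genes, the lists, the settings and the naming rule were chosen with earlier results of these data known. The rule named, in each list, up to 4 called genes in its main direction and up to 2 in the other, and the 2 genes most like each of the 6. Alternatives were centring, scaling, no dye term, one dye alone, single probes, array weights, extreme values set missing, each array left out, and the sets of arrays left out or taken as a random block.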

Additional observations from a re-analysis of the deposited data

Results flagged for a closer look

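In 7 of 114 groups of 8 arrays tested, 1 array stood apart by its gap to the nearest other array, and chance alone flags about 1 in 20 groups. Values here are log2 ratios adjusted for dye, and no cause was tested. Msrb3 had 2 such arrays, M833 replicate 3 at 1.455, with the other M833 arrays between 1.304 and 1.374, and WT replicate 1 at 1.463, with the other WT arrays between 1.66 and 1.767. Both shorten the distance between the cell types, and the difference of Msrb3 was -0.34 without the M833 array and -0.36 without the WT array.

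Ptgr1 was at -0.064 on M833 replicate 5, where the others lay between 0.221 and 0.413, and without it the difference was -0.31. Lcp1 was at -1.632 on M833 replicate 1, above the other M833 arrays, and Col1a2 at -0.192 on WT replicate 6, below the other WT arrays. The genes most like Msrb3 were also apart on WT replicate 1, Arpc4 at -0.988, with the others between 0.139 and 0.582, and Gtf3c1 at -2.359, with the others between -0.225 and 0.555. They were chosen by a likeness to Msrb3 that rested on this array. Their flags, which are among those counted above, are therefore not independent of that of Msrb3.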

How the results depend on the processing

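The number of features called between M833 and WT was 3301, with 1276 higher and 2025 lower. It was 2000 with no dye term, 835 with the Cy5 arrays alone, 1100 with the Cy3 arrays alone, 1465 with sets of arrays as a random block, and 2878 to 3295 without single arrays. Centring each array gave 1598 higher and 1577 lower. Calls in the pathway lists were 35, against 12 with Cy5 alone, 16 with Cy3 alone, 20 with the random block and 32 to 36 without single arrays. The dye interaction, with 0 calls, had 7 when the 3 M833 arrays from the other slide number series were left out and 2 without either WT set. Scaling between arrays gave -0.49 for Ephx1, -0.53 for Gss, 0.73 for Gsto1, -0.41 for Dcxr, -0.050 for Msrb3 and, reversed, 0.044 for Me1. Without WT replicates 1, 2, 5 and 6 the difference was -0.61 for Ephx1, 0.027 for Gsto1 and -0.23 for Me1, and leaving out WT replicates 3, 4, 7 and 8 gave -1.24 for Ephx1, 0.54 for Gsto1 and -0.046 for Me1. Me1 probe 2 gave -0.24 and probe 4 -0.043. With sets of arrays as a random block the differences of the 6 genes stayed the same and their SE grew. The SE was then 0.16 for Ephx1, 0.047 for Gss, 0.11 for Gsto1, 0.068 for Dcxr, 0.064 for Msrb3 and 0.061 for Me1. Leaving out single arrays gave -0.99 to -0.86 for Ephx1, -0.62 to -0.60 for Gss, 0.23 to 0.33 for Gsto1, -0.70 to -0.65 for Dcxr, -0.36 to -0.31 for Msrb3 and -0.16 to -0.11 for Me1. Scaling divides all ratios of an array by 1 factor, taken from their median size, so ratios far from 0 shift most. That size was 0.191 to 0.276 in M833 and 0.219 to 0.336 in WT. Why the arrays differed in this size, and why the sets of arrays differed, was not tested. In a count over results and settings 127 values lost and 15 gained a call, 53 moved and 1518 stayed the same. That count leaves out the reversal of Me1 after scaling. No paired analysis was possible because the labels carry no replicate numbers. The number of arrays limits the precision.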

Other observations

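The genes of this paragraph were chosen after their values were seen. Several mu class and microsomal glutathione transferase genes followed the sets of WT arrays as Ephx1 did. Gstm1 averaged -0.24 on WT replicates 1, 2, 5 and 6 and -1.07 on WT replicates 3, 4, 7 and 8, a difference between the sets of 0.82, and the same difference was 0.58 for Gstm2, 0.62 for Gstm6 and 1.08 for Mgst1. Not all genes of these classes did so to this extent, as it was 0.37 for Mgst3, 0.18 for Gstm7 and -0.006 for Gstm5. Nor was it particular to these classes, as it was 0.91 for Ugdh, 0.85 for Ccnb2 and -1.35 for Aldh1a2. Over all features 3.82% had a WT set difference as large as that of Ephx1, which was 0.64. Whether the probes tell these related transferase genes apart was not tested. On M833 replicates 3, 4, 7 and 8 Gstm1 lay between -0.53 and -0.40, above the lower WT set at -1.23 to -0.96. M833 replicates 1, 2, 5 and 6 averaged -0.95, with the lowest array at -1.62, below that WT set, and the highest at -0.69, above it. Txnrd1 and Hmox1 ran the other way, as Gsto1 did. Txnrd1, the cytosolic thioredoxin reductase gene, was at 0.69 to 0.77 on WT replicates 1, 2, 5 and 6 and at 1.15 to 1.36 on WT replicates 3, 4, 7 and 8, with M833 at 1.08 to 1.37. Hmox1 was at -0.50 to 0.09 and at 0.49 to 0.88 on the same sets of WT arrays, with M833 at -0.58 to 0.07. Aldh1a1, a retinal dehydrogenase gene, lay between -0.48 and 0.52 on the M833 arrays and between -0.39 and 0.85 on 7 WT arrays, and reached 10.97 on WT replicate 2 alone.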
